A study of Mus musculus with 6 samples.

Results

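A set of 10 genes that mark or drive the mesenchymal state was followed in sorted coronary endothelial cells (ECs) of the embryonic mouse heart with and without Wt1. They are the transcription factors Snai1, Snai2, Twist1, Twist2, Zeb1 and Zeb2 and the markers Cdh2, Vim, Fn1 and S100a4. They were picked by gene symbol, and all 10 were found among the 55416 genes of the count table.

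The study asked what WT1, a zinc finger transcription factor, does in coronary ECs during early coronary vessel growth. Both groups were E15.5 embryos carrying 1 copy each of Pdgfb(CreERT2/+), a tamoxifen-inducible Cre driven by Pdgfb, and of the Cre reporter R26(mTmG/+). The 3 ControlΔEC libraries were Wt1(+/+) and the 3 Wt1KOΔEC libraries were Wt1(loxP/loxP). Dams received 75 mg/kg tamoxifen by gavage between E11.5 and E13.5, so that ControlΔEC embryos also carried active Cre and had been exposed to tamoxifen. Membrane GFP-positive (mGFP+) cells, which had undergone recombination, were sorted from collagenase-digested ventricles. The Pdgfb driver is active in ECs rather than in all cells of the heart, and a sorted cell shows recombination of the reporter, not of Wt1 itself. How many embryos went into a library is not given in the sources used here, and p-values therefore measure the spread between these libraries.

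In an epithelial- or endothelial-to-mesenchymal transition, cells loosen their junctions, change their cytoskeleton and matrix, and become motile. Factors of the Snail and ZEB families are zinc finger repressors that bind E-box sequences in genes such as Cdh1, which encodes E-cadherin, and the Twist proteins are basic helix-loop-helix factors of the same programme. In the heart this transition is best known from the endocardial cushions, where ECs form valve mesenchyme, and from the epicardium, where WT1 is known to act on Snai1 and Cdh1.

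Libraries held 26037324 to 44779020 counts. In the library of lowest depth, 3 counts correspond to 0.119 CPM (a gene's counts relative to the library's total, corrected by the trimmed mean of M-values, TMM), and in that of highest scaled depth to 0.0608 CPM. These floors cover counting error only. Wt1 was at 145, 109.6 and 148.7 CPM in ControlΔEC and at 14.0, 18.4 and 21.3 CPM in Wt1KOΔEC, so the groups matched their labels. The log2 fold change of Wt1 was -2.91 ± 0.22 (SE; edgeR, adjusted p = 0.00319). Summed endothelial genes, among them Pecam1 and Kdr, lay at 5830 to 7310 CPM in ControlΔEC and 5750 to 6690 CPM in Wt1KOΔEC. Markers of other cells were also present. Their sums differed between genotypes for some cell types and overlapped for others, cardiomyocytes among them. ControlΔEC replicate 2 stood apart from the other ControlΔEC libraries on the second principal component, at -23.54 against 22.65 and 23.39 for those, and had the highest macrophage sum, 781 CPM.

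None of the members passed the threshold for a differentially expressed gene (DEG), set at an adjusted p under 0.05 and a log2 fold change beyond 0.58 in either direction. Of the 10, 9 had enough counts to be tested. With edgeR, 0 of these 9 were DEGs, against 12 of all 16296 genes tested (0.0736%, with 0.0491% higher and 0.0245% lower in Wt1KOΔEC). At an unadjusted p under 0.05, 2 of the 9 passed, Snai1 with higher and Snai2 with lower values in Wt1KOΔEC, against 13.1% of all genes, 5.96% higher and 7.12% lower. The paper called its DEGs with DESeq2 and the same fold limit. With DESeq2 here, 1 member was a DEG, Snai1, against 4.83% of the genes with an adjusted p (2.2% higher in Wt1KOΔEC). With DESeq2 on the genes kept here, 0 members and 3.85% of genes were DEGs. The estimates of the Snail genes had opposite signs, and the intervals of the other 7 members tested included 0.

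**Figure D1:**
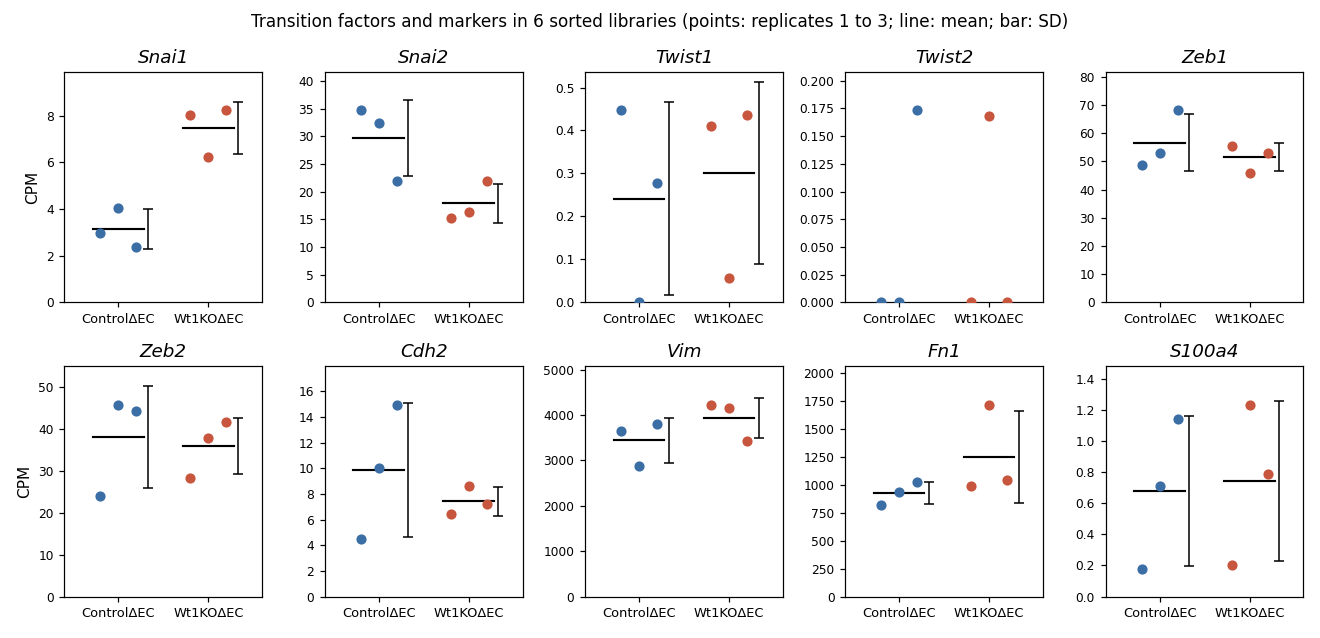
Expression of the 10 members in each library, in CPM on a linear axis from 0, with ControlΔEC in blue and Wt1KOΔEC in red. Points are libraries, horizontal lines group means and bars SD (not drawn for Twist2, which had counts in 2 libraries); only Snai1 has Wt1KOΔEC libraries (6.21 to 8.23 CPM) all on one side of the ControlΔEC libraries (2.36 to 4.06 CPM).

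Snai1 (ENSMUSG00000042821.8; GRCm39 chr2:167380113-167384734, plus strand) encodes Snail, a repressor of Cdh1 that is switched on early in many transitions. Its counts were 133, 200 and 68 in ControlΔEC and 313, 221 and 208 in Wt1KOΔEC. Scaled, these were 2.97, 4.06 and 2.36 CPM against 8.01, 6.21 and 8.23 CPM. Every Wt1KOΔEC library lay above every ControlΔEC library. Of the 9 members tested, Snai1 was the 1 without overlap, against 19.3% of all genes, 10.3% higher and 8.97% lower. The mean was 3.13 ± 0.859 CPM (SD, n = 3) in ControlΔEC and 7.48 ± 1.11 CPM (SD, n = 3) in Wt1KOΔEC. This gave a log2 fold change of 1.26 ± 0.45 (SE), a 2.39-fold difference, with a 95% interval from 0.25 to 2.26. The edgeR adjusted p was 0.29 (unadjusted p = 0.0202), so Snai1 did not pass in the test used throughout. The DESeq2 adjusted p was 0.0458 on the whole table and 0.135 when DESeq2 was given only the genes kept here, an alternative chosen after the data had been seen. Leaving out 1 library at a time gave log2 values from 1.09 to 1.49.

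Several other gene groups also had higher values in the Wt1KOΔEC libraries. Genes induced by tissue dissociation summed to 2130 to 2680 CPM in ControlΔEC and 3210 to 4200 CPM in Wt1KOΔEC, all 10 with higher values in Wt1KOΔEC (48.0% of all genes tested) and 7 of them with an unadjusted p under 0.05 (5.96% of all genes). Endocardial markers summed to 264 to 374 against 394 to 457 CPM, with 5 of 5 higher. Epicardial markers summed to 36.1 to 49.4 against 66.1 to 79.3 CPM, with 6 of 8 higher, and fibroblast markers to 689 to 991 against 1370 to 1570 CPM, with 8 of 10 higher. Their part in the Snai1 difference was not tested. In a bulk library, a change in the number of cells of one type and a change in RNA per cell cannot be told apart.

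The Snai1 promoter is shown because WT1 and Snail-type factors both have known binding letters that can be looked for in it. It covers 250 bases before to 50 after the start (RefSeq, GRCm38.p6 chr2:167537945-167538244, plus strand). The capitals mark the one E-box found, CACCTG, which is CAGGTG on the other strand and begins at base 125 of the 300.
Snai1 promoter: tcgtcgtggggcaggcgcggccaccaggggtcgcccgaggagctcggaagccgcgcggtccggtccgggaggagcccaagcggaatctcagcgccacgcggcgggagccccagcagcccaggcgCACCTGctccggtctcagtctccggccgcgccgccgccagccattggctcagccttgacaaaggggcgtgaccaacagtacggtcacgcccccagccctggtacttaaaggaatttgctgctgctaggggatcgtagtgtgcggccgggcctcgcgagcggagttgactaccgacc
CAGGTG on either strand was present in 20.2% of all 32851 promoters of that length. The WT1-type letters GCGGGGGCG and GCGTGGGNG, held by 2.91% and 1.9% of all promoters on either strand, were not in this window. Promoters of 6 of the 10 members were searched, and those of the remaining members were not. Among the other members searched, Twist2 held 1 GCGGGGGCG, at base 135, and the windows of Twist1, Zeb2, Vim and S100a4 held none of these motifs. These are matches of letters in the window and not measured binding.

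Snai2 (ENSMUSG00000022676.8; chr16:14523425-14527252, plus strand) encodes Slug, the Snail relative that marks migrating neural crest and the endothelial transition of the cushions. It had 34.7, 32.4 and 21.9 CPM in ControlΔEC and 15.3, 16.4 and 22.0 CPM in Wt1KOΔEC. The groups overlapped only through ControlΔEC replicate 3 and Wt1KOΔEC replicate 3, which lay side by side. The means were 29.7 ± 6.84 and 17.9 ± 3.59 CPM (SD, n = 3 each). Its log2 fold change was -0.73 ± 0.26 (SE), 1.66-fold lower in Wt1KOΔEC, with a 95% interval from -1.33 to -0.14. It did not pass the adjusted threshold in edgeR (adjusted p = 0.293, unadjusted p = 0.0212) or in DESeq2 (adjusted p = 0.111). Without 1 library at a time the value ran from -0.91 to -0.60. Mural cell markers were, like Snai2, lower in Wt1KOΔEC, at 434 to 577 CPM in ControlΔEC and 278 to 344 CPM in Wt1KOΔEC. Of this list, 6 of 6 tested were lower (52.0% of all genes tested), and the paper counts its genes Rgs5 and Kcnj8 among arterial markers. Smooth muscle genes outside the list were mixed, with Acta2 at -0.04, Des at -0.41, Tagln at 0.92 and Cnn1 at 0.88 on the log2 scale. Each of them overlapped between genotypes. Macrophage markers were lower too, with 7 of 7 lower, although their sums of 253 to 781 and 188 to 271 CPM overlapped. The part of mural and macrophage RNA in the Snai2 difference was not tested. Foxd3, a factor of the neural crest, had no count in any library.

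The balance of the Snail genes was compared within each library, where the scaling between libraries cancels. The ratio is formed from the same Snai1 and Snai2 values as above and adds no new measurement. Snai2 exceeded Snai1 by 11.7, 7.99 and 9.28 times in the ControlΔEC libraries and by 1.91, 2.64 and 2.67 times in the Wt1KOΔEC libraries. The ranges did not overlap. On the log2 scale the ratio was 3.25 ± 0.28 in ControlΔEC and 1.25 ± 0.28 in Wt1KOΔEC (SD, n = 3 each), a difference of -2.0. The two-sided exact permutation test gave p = 0.1, the smallest that 3 against 3 libraries allow, and 0.3 after Benjamini-Hochberg adjustment over the 6 ratios that could be computed. Leaving out any library kept the difference between -2.13 and -1.85. Snai1 made up 7.88%, 11.1% and 9.73% of summed Snail CPM in ControlΔEC and 34.4%, 27.5% and 27.3% in Wt1KOΔEC. The sum itself overlapped between genotypes, at 24.2 to 37.7 CPM in ControlΔEC (mean 32.8 ± 7.44, SD, n = 3) and 22.6 to 30.2 CPM in Wt1KOΔEC (mean 25.4 ± 4.21, SD, n = 3).

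**Figure D2:**
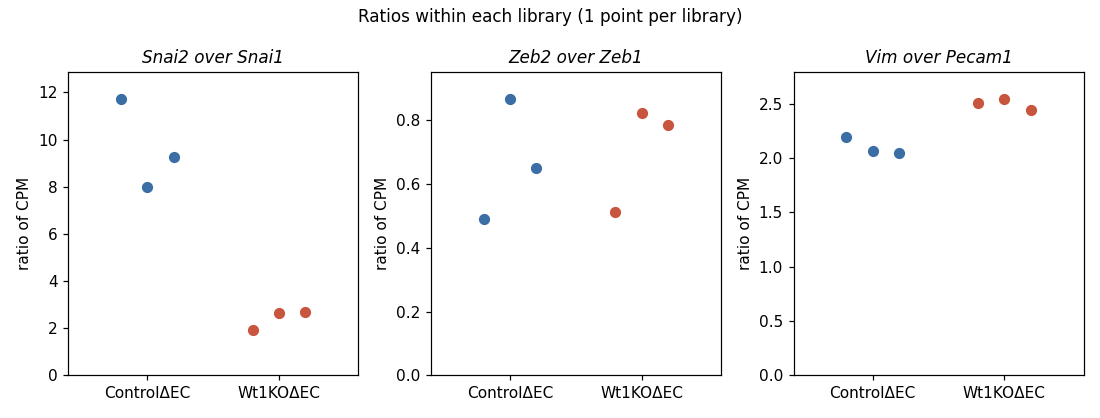
Ratios of CPM within each library, 1 point per library, with ControlΔEC in blue and Wt1KOΔEC in red on axes from 0. Snai2 over Snai1 falls in separate ranges (7.99 to 11.7 and 1.91 to 2.67), Zeb2 over Zeb1 overlaps, and Vim over Pecam1 lies at 2.05 to 2.19 in ControlΔEC and 2.44 to 2.54 in Wt1KOΔEC.

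Zeb1 and Zeb2, the zinc finger and homeodomain repressors that act beside Snail factors on E-box genes, had similar levels in both genotypes. Zeb1 (ENSMUSG00000024238.16; chr18:5591851-5775467, plus strand) had 48.7, 53.0 and 68.1 CPM in ControlΔEC and 55.5, 46.0 and 53.0 CPM in Wt1KOΔEC. The groups overlapped, and the log2 fold change was -0.14 ± 0.19 (SE; 95% interval -0.56 to 0.29, edgeR adjusted p = 0.851). This interval leaves out a change of the size of 0.58 in either direction. Zeb2 (ENSMUSG00000026872.19; chr2:44873644-45007464, minus strand) had 23.9, 45.8 and 44.3 CPM in ControlΔEC and 28.4, 37.8 and 41.6 CPM in Wt1KOΔEC. Its lowest library in each genotype was replicate 1. The log2 fold change was -0.08 ± 0.28 (SE; 95% interval -0.72 to 0.55, edgeR adjusted p = 0.951). The sign of both changes turned under an offset for length and GC content and without some libraries. The ratio of Zeb2 to Zeb1 was 0.491, 0.865 and 0.65 in ControlΔEC and 0.511, 0.822 and 0.784 in Wt1KOΔEC (exact permutation p = 0.9, two-sided).

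The Twist genes were barely detected. Twist1 (ENSMUSG00000035799.7; chr12:34007645-34009828, plus strand), which acts in cushion and craniofacial mesenchyme, had 20, 0 and 8 counts in ControlΔEC and 16, 2 and 11 in Wt1KOΔEC. In both genotypes replicate 2 was at or below 3 counts. The interval of its log2 fold change ran from -3.87 to 4.49 (estimate 0.31 ± 1.85, SE), so a difference of several-fold in either direction was not detectable at this depth. Twist2 (ENSMUSG00000007805.5; chr1:91729176-91796542, plus strand), a dermal and mesenchymal relative, had 5 counts in ControlΔEC replicate 3, 6 in Wt1KOΔEC replicate 2 and 0 in the other 4 libraries. It failed the filter on low counts and was not tested, and its ratio to Twist1 could not be computed in libraries without counts.

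Among the markers, Vim and Fn1 were among the most abundant transcripts of these cells. Vim (ENSMUSG00000026728.10; chr2:13578738-13587639, plus strand), the intermediate filament protein vimentin, had 3657, 2873 and 3796 CPM in ControlΔEC and 4230, 4148 and 3421 CPM in Wt1KOΔEC. The ControlΔEC mean ranked 12 of all genes by CPM, and the genotypes overlapped. Its log2 fold change was 0.19 ± 0.15 (SE; 95% interval -0.15 to 0.54, edgeR adjusted p = 0.686), and it was 0.08 without ControlΔEC replicate 2. Relative to Pecam1, the endothelial adhesion molecule CD31, Vim was 2.19, 2.07 and 2.05 times as high in ControlΔEC and 2.51, 2.54 and 2.44 times in Wt1KOΔEC. These ranges were apart by more than the spread within either group, with a log2 difference of 0.24 (1.07 ± 0.05 and 1.32 ± 0.03, SD, n = 3 each). The two-sided exact permutation p was 0.1, the smallest possible, and 0.3 after adjustment. Pecam1 itself was at 1635 ± 235 CPM in ControlΔEC and 1575 ± 150 CPM in Wt1KOΔEC (SD, n = 3 each).

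Fn1 (ENSMUSG00000026193.16; chr1:71624673-71692419, minus strand), fibronectin of the extracellular matrix, had 823.5, 933 and 1025 CPM in ControlΔEC and 987, 1721 and 1041 CPM in Wt1KOΔEC. The highest value came from Wt1KOΔEC replicate 2, and the other Wt1KOΔEC libraries lay at or near the upper end of ControlΔEC. Its log2 fold change was 0.43 ± 0.22 (SE; 95% interval -0.07 to 0.93, edgeR adjusted p = 0.463), and it was 0.13 without Wt1KOΔEC replicate 2. Fn1 relative to Pecam1 differed by 0.44 on the log2 scale (exact permutation p = 0.2, two-sided), and by 0.21 to 0.63 without 1 library at a time.

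Cdh2 (ENSMUSG00000024304.15; chr18:16700793-16942381, minus strand) encodes N-cadherin, the cadherin gained in mesenchymal transition and also used by ECs at their contacts with mural cells. It had 4.52, 10.0 and 15.0 CPM in ControlΔEC and 6.42, 8.65 and 7.20 CPM in Wt1KOΔEC. All Wt1KOΔEC values lay within the wide ControlΔEC range. For Cdh2 the log2 fold change was -0.41 ± 0.45 (SE; 95% interval -1.43 to 0.62, edgeR adjusted p = 0.799), and it was 0.03 without ControlΔEC replicate 3. Set against Cdh5, the endothelial VE-cadherin, Cdh2 was far lower in every library, at 0.0102 to 0.0285 of Cdh5 CPM in ControlΔEC and 0.0125 to 0.0174 in Wt1KOΔEC (exact permutation p = 0.5, two-sided).

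S100a4 (ENSMUSG00000001020.9; chr3:90511074-90513354, plus strand), a calcium-binding protein also called fibroblast-specific protein that leukocytes express too, had 8, 35 and 33 counts in ControlΔEC and 8, 44 and 20 in Wt1KOΔEC. Replicate 1 was lowest in both genotypes, and the groups overlapped. For S100a4 the log2 fold change was 0.14 ± 1.3 (SE; 95% interval -2.81 to 3.08, edgeR adjusted p = 0.985), and its sign turned with library-size scaling.

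**Figure D3:**
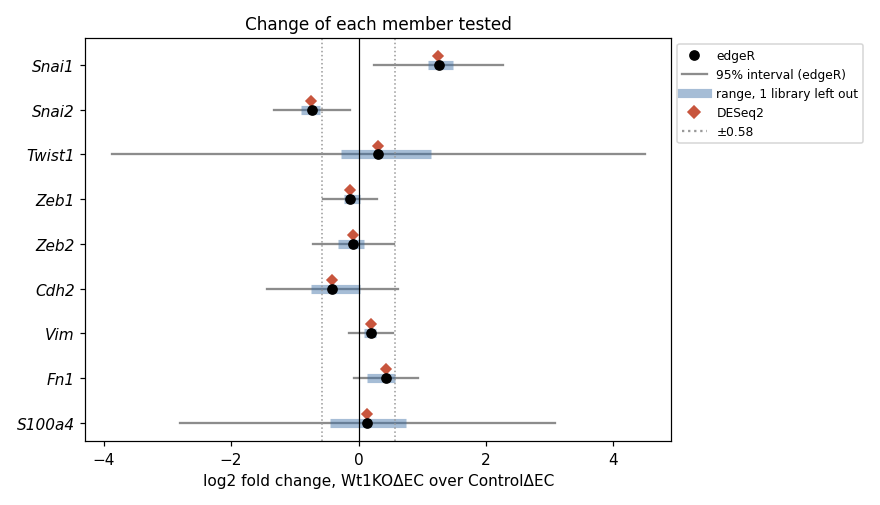
Log2 fold change of the 9 members tested, Wt1KOΔEC over ControlΔEC, with edgeR estimates as black points, their 95% intervals as grey lines, the range with 1 library left out as blue bands and DESeq2 estimates as red diamonds. The intervals of Snai1 (0.25 to 2.26) and Snai2 (-1.33 to -0.14) leave out 0, and those of Twist1 and S100a4 are the widest.

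To compare levels between genes, CPM was divided by exonic length in kb. In ControlΔEC the order was Vim at 724 ± 105 CPM per kb, Fn1 at 58.6 ± 6.39, Snai2 at 12.8 ± 2.96, Zeb1 at 4.15 ± 0.748, Snai1 at 1.93 ± 0.529, Zeb2 at 1.67 ± 0.537, Cdh2 at 1.14 ± 0.604, S100a4 at 0.746 ± 0.533, Twist1 at 0.146 ± 0.137 and Twist2 at 0.0104 CPM per kb (SD, n = 3). Vim exceeded Fn1 by 12.4-fold and Fn1 exceeded Snai2 by 4.57-fold, with no library overlapping, and Snai2 over Zeb1 (3.09-fold) and Zeb1 over Snai1 (2.15-fold) were separate as well. From Snai1 downward every neighbour in this order overlapped with the next across libraries. Snai2 was thus the most abundant factor of the set in ControlΔEC by this measure. In Wt1KOΔEC Snai2 was also the highest factor by this measure, at 7.72 ± 1.55 CPM per kb, and Snai1, at 4.61 ± 0.684, stood above Zeb1, at 3.78 ± 0.364, although their ranges overlapped. These orders depend on the length used. By the longest annotated transcript, Zeb2 and Cdh2 came ahead of Snai1 in ControlΔEC, and in Wt1KOΔEC Zeb1 (8.88 CPM per kb) came ahead of both Snai2 (7.73) and Snai1 (4.61).

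**Figure D4:**
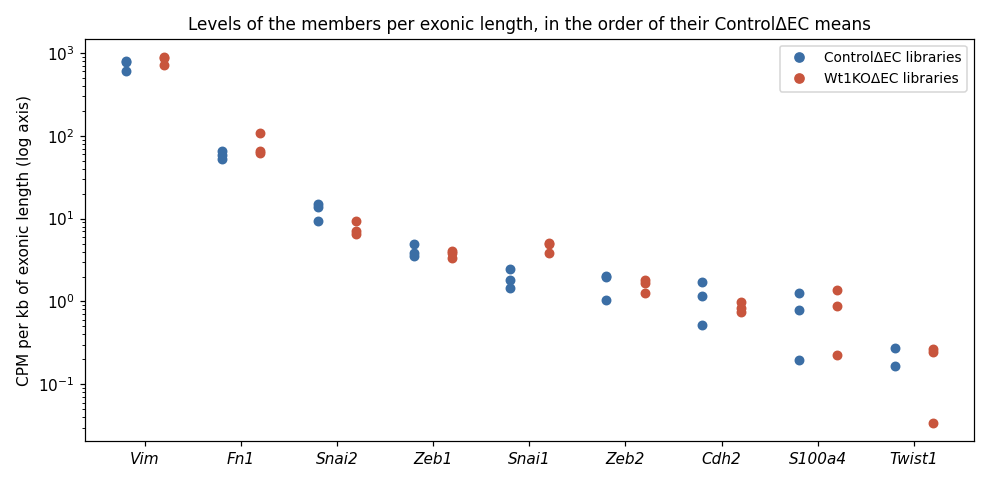
Level of each member in CPM per kb of exonic length, on a log axis, ordered by the ControlΔEC mean, with 1 point per library (ControlΔEC in blue, Wt1KOΔEC in red). Libraries at 0 (1 ControlΔEC library of Twist1) and Twist2 are not drawn; the members span from 724 CPM per kb for Vim to 0.146 CPM per kb for Twist1.

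Other genes of the same programme were counted in lists. Of 14 further transition factors and Id genes tested, 0 were DEGs with edgeR, and 4 were higher and 0 lower at an unadjusted p under 0.05, against 5.96% and 7.12% of all genes. The median log2 fold change was 0.17, against -0.03 over all genes, but it was -0.04 without Wt1KOΔEC replicate 1 and 0.40 with 10 counts in every library. Sox9, a factor of cushion mesenchyme, had 3.06, 3.24 and 6.0 CPM in ControlΔEC and 9.78, 8.99 and 12.4 CPM in Wt1KOΔEC, and was a DEG with DESeq2 (log2 1.34 ± 0.42, SE; edgeR adjusted p = 0.245). Id2, an inhibitor of basic helix-loop-helix factors, went from a mean of 85.2 to 156 CPM (log2 0.87 ± 0.23, SE; edgeR adjusted p = 0.209, DESeq2 adjusted p = 0.0157). Neither gene overlapped between genotypes. Among 8 corepressors through which Snail and ZEB proteins act, 1 passed an unadjusted p under 0.05 in each direction. Of the 8, 7 had lower values in Wt1KOΔEC (median -0.33), against 52.0% of all genes tested. The exception was Hdac1, a histone deacetylase, at 89.9 ± 8.14 CPM in ControlΔEC and 139.5 ± 8.39 CPM in Wt1KOΔEC (SD, n = 3 each; edgeR adjusted p = 0.17, DESeq2 adjusted p = 0.0018). Hdac2, its relative in the same list, went the other way, at 135.2 ± 44.0 CPM in ControlΔEC and 80.0 ± 2.67 CPM in Wt1KOΔEC (SD). Its log2 fold change was -0.76 ± 0.24 (SE; edgeR adjusted p = 0.253, DESeq2 adjusted p = 0.0594).

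Signals that induce the factors were measured by 21 genes of TGF-beta and BMP signalling. With edgeR 0 were DEGs, 2 were higher and 2 lower at an unadjusted p under 0.05, and the median was 0.13 (0.01 to 0.15 with 1 library left out). Bmp2, a BMP ligand that starts cushion transition, had 12.8, 12.9 and 12.1 CPM in ControlΔEC and 39.1, 30.3 and 28.3 CPM in Wt1KOΔEC. The Wt1KOΔEC libraries were all more than 15 CPM above the tight ControlΔEC group. The log2 fold change was 1.37 ± 0.23 (SE), with an edgeR adjusted p of 0.108 and a DESeq2 adjusted p of 1.27e-06.

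The 19 mesenchymal matrix and cytoskeleton genes held the one edgeR DEG among the lists of this programme. Col1a1, the main chain of type I collagen, had 123.6, 119 and 100 CPM in ControlΔEC and 321.6, 245 and 303 CPM in Wt1KOΔEC (log2 1.34 ± 0.17, SE; edgeR adjusted p = 0.0441). The call ended with library-size scaling (adjusted p = 0.0527), with the length and GC offset (0.0648) and with the replicate block (0.091). It also ended without any 1 library other than ControlΔEC replicate 2 (0.0506 to 0.271). It held with limma-voom (adjusted p = 0.0237), with 10 counts in every library (0.00865), without a filter (0.000186) and with DESeq2 (1.4e-11). The log2 value stayed between 1.19 and 1.45. Of the 19 genes, 6 were higher and 1 was lower at an unadjusted p under 0.05, against 5.96% and 7.12% of all genes. With DESeq2, 6 of the 19 were DEGs, all with higher values, against 4.83% of the genes with an adjusted p (2.2% higher). The median was 0.38, and it was 0.16 without ControlΔEC replicate 2 and 0.51 without ControlΔEC replicate 1. Loxl2, a collagen cross-linking enzyme that also binds Snail, had a log2 fold change of 1.26 ± 0.34 (SE; edgeR adjusted p = 0.209, DESeq2 adjusted p = 0.014). Its Wt1KOΔEC replicate 3 was level with ControlΔEC replicate 3 at 29.1 and 28.6 CPM. Lgals1, the lectin galectin-1, had a log2 fold change of 1.12 ± 0.20 (SE; edgeR adjusted p = 0.108, DESeq2 adjusted p = 5.16e-05). Col1a1 and the other collagens of this list, Col1a2 and Col3a1, also stand in the fibroblast list. The paper counts Col1a1, Col3a1 and the fibroblast-list gene Dcn among venous markers that were overexpressed in Wt1KOΔEC. Of the fibroblast markers, Mfap4 was at 1.46 and Dcn at 0.97 on the log2 scale, while Lum was at 0.04, Postn at -0.16 and Dpt at -1.60, the last without overlap between genotypes. The part of fibroblast RNA in the matrix values was not tested.

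Partners of the marker proteins were measured beside them. None of 7 fibronectin receptor integrins had an unadjusted p under 0.05 (median -0.16, and -0.30 to 0.03 with 1 library left out), and their most abundant members were Itgb1 (1251 and 1176 CPM) and Itga5 (389 and 348 CPM). The 4 catenins that carry cadherins lay between -0.08 and -0.01 on the log2 scale, with Ctnnb1 at 844 ± 58.0 and 833.5 ± 98.4 CPM and Jup at 712 ± 54.7 and 689 ± 114 CPM (SD, n = 3 each). Of 6 S100 relatives tested, 1 had an unadjusted p under 0.05, and the most abundant, S100a16 and S100a10, had log2 fold changes of 0.05 and -0.16. The 11 endothelial genes had a median of -0.05, and 1 of them was higher at an unadjusted p under 0.05. This was Emcn, the sialoglycoprotein endomucin, at 344 ± 49.2 CPM in ControlΔEC and 455 CPM in Wt1KOΔEC without overlap (log2 0.41, edgeR adjusted p = 0.332). Kdr, a VEGF receptor, was at 1136 ± 93.4 CPM in ControlΔEC and 931 ± 66.4 CPM in Wt1KOΔEC (SD, n = 3 each; log2 -0.29, edgeR adjusted p = 0.425) with no overlap between genotypes.

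Epithelial genes, the classical targets that Snail and ZEB factors repress, were low or not detected for part of the list. Cdh1, Crb3, Esrp1 and Ovol2 had 0 counts in every library, which allows at most the 3-count floor. The 18 genes summed to 17.5 to 24.5 CPM in ControlΔEC and 37.3 to 54.0 CPM in Wt1KOΔEC, and 10 of the 11 that could be tested had higher values in Wt1KOΔEC, against 48.0% of all genes tested. The median was 1.02, but it was 2.26 with the replicate number as a block and 1.71 with limma-voom. Of the genes tested 1, Ocln, had an unadjusted p under 0.05. Ocln, a tight junction protein that ECs also make, had 7.89 ± 2.51 and 15.48 ± 2.77 CPM (SD, n = 3 each; edgeR adjusted p = 0.268). Krt18, a keratin, had 3.20 ± 2.68 and 8.78 ± 2.09 CPM (SD, n = 3 each; edgeR adjusted p = 0.434). Epicardial cells make keratins too, and their markers were mixed. Some had higher values in the Wt1KOΔEC libraries, Msln at 1.32, 0 and 0.416 against 18.9, 2.75 and 7.76 CPM and Upk3b at 3.71, 1.32 and 1.07 against 12.0, 5.28 and 9.89 CPM. Aldh1a2, the retinoic acid enzyme of the epicardium, was at -0.05 on the log2 scale, Dmkn at -0.34 and Clu at 0.25, each with overlapping genotypes. Their part in the epithelial values was not tested.

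**Figure D5:**
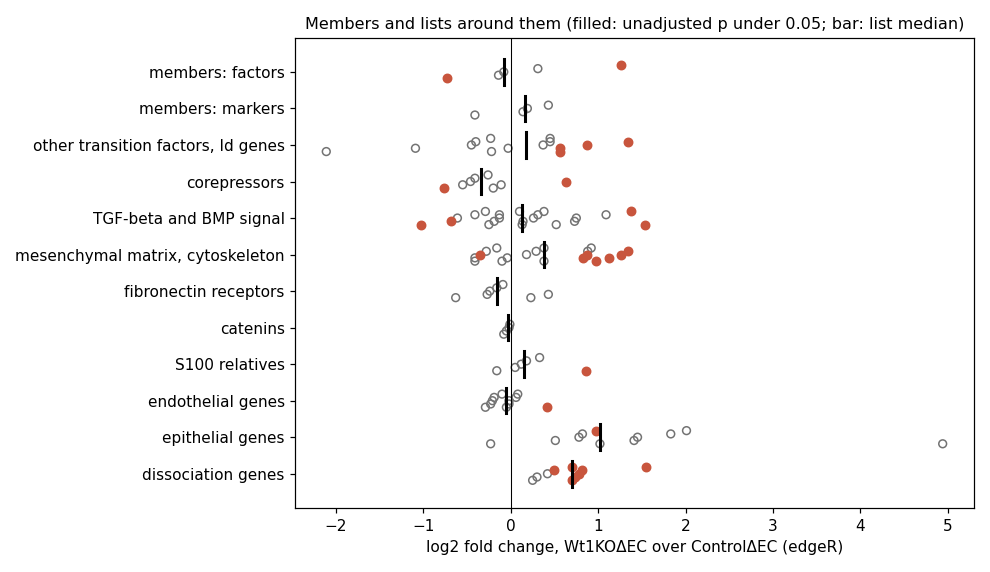
Log2 fold changes (edgeR, Wt1KOΔEC over ControlΔEC) of the members and of the lists around them, 1 point per gene tested, filled in red at an unadjusted p under 0.05, with list medians as black bars. Factors lie on both sides of 0 (median -0.08), mesenchymal genes have a median of 0.38, epithelial genes of 1.02 and dissociation genes of 0.70.

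Annotated genes that share exons with members could not be separated by strand, because the library kit does not keep it. In GENCODE vM39, the antisense RNA Gm75792 covers 12.7% of Snai1 exons and Gm54102 covers 12.3% of Vim exons, and neither was analysed here. Counts assigned to other overlapping genes were small, at 5 to 71 for Zeb1os1 (Gm10125 in the table), 0 to 6 for Zeb2os, 1 to 6 for Apol7d at Fn1, and 0 for Gm29100 at Twist2 and Gm42674 at S100a4.

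Across the 6 libraries, the expressed genes whose log2 CPM ran most like that of Snai2, the most abundant factor per kb, were Ttc9 (Pearson r = 0.994), Otud4 (r = 0.988) and Mir22hg (r = 0.988). Those most like Vim, the most abundant marker, were Tcp1 (r = 0.992), Adrm1 (r = 0.987) and Scaf11 (r = 0.984). These are the highest values among 8467 candidate genes over 6 points from 2 genotypes, and are given as a description. In all, 128 genes exceeded r = 0.9 with Snai2 and 94 with Vim.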

How the data were processed

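RNA-Seq was performed on mGFP+ cells of 3 ControlΔEC and 3 Wt1KOΔEC libraries (SMART-seq2, without molecular identifiers or strand). The authors aligned reads with STAR 2.7.8a and deposited RSEM 1.3.0 expected counts per gene as whole numbers, unnormalized. The build is GRCm38 in the submitters' processing notes and GRCm39 in the published methods. Positions given here are those of GENCODE vM39.

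A gene with 10 or more counts in 2 or more libraries entered the edgeR 4.0.16 fit (R 4.3.3; TMM, quasi-likelihood test, Benjamini-Hochberg over all 16296 genes), and the script was tested on simulated data. The SE was obtained by dividing each log2 fold change by the root of its F statistic. DESeq2 1.42.0, limma-voom (limma 3.58.1), other scalings, filters, offsets and left-out libraries were alternatives. Ratios and single values used exact permutation tests. The ratio family was adjusted over 6 rather than 7 ratios, since Twist2 over Twist1 had zeros.

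Named genes were the 10 members, Wt1, ratio partners, overlapping genes, likeness genes, and per list the edgeR or DESeq2 DEGs (at most 3 per direction by fold change) or else the 2 with highest CPM. Members and lists were chosen with earlier results of these data known. The neural crest list is not reported here beyond Foxd3. Emcn, Lum, Postn, Dpt, Aldh1a2, Dmkn, Clu, Col1a2, Col3a1, Hdac2, Kcnj8, Acta2, Des, Tagln, Cnn1, Cdh3, Esrp2 and Grhl2 were named after their values had been seen. Same-numbered libraries were checked for pairing.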

Additional observations from a re-analysis of the deposited data

How the results depend on the processing

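The Snai1 and Snai2 differences kept their signs in 19 alternatives each, from 1.05 to 1.49 and from -0.91 to -0.60 on the log2 scale, with adjusted p from 0.0458 to 0.615 and from 0.111 to 0.637. DESeq2 alone called a member (1 DEG, Snai1 at 1.25). DEGs over all genes numbered 12 with edgeR, 767 with DESeq2, 599 with DESeq2 on the genes kept, 296 without a filter, 113 with 10 counts in every library, and 2 to 37 with 1 library left out. List DEGs numbered 1 in the reported test, 10 with DESeq2, 9 on the genes kept, 8 without a filter, 5 with 10 counts in every library, 0 with library-size scaling or the length and GC offset, and 0 to 1 with 1 library left out (0 without ControlΔEC replicate 1 or any Wt1KOΔEC library).

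Signs turned for Zeb1 (0.03 with the offset, -0.23 to 0.02 with 1 library left out), Zeb2 (0.21 and -0.33 to 0.08), S100a4 (-0.02 with library size only, -0.07 with the offset, -0.45 to 0.74), Twist1 (-0.27 to 1.13) and Cdh2 (-0.75 to 0.03). The ratio differences Zeb2 over Zeb1 (-0.12 to 0.30) and S100a4 over Pecam1 (-0.59 to 1.01) also turned. The cause was not tested. Length by the longest transcript moved 3 of the 10 positions in the order of levels. A minimum of 10 counts in every library left no value for Twist1 and S100a4.

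Same-numbered libraries correlated at r = 0.0526, 0.17 and 0.0944 in their deviations, too little to treat the numbers as pairs, though every library correlated best with its own number. The paper's breeding gave both genotypes within a litter, but the labels do not say which libraries shared one. Library codes begin with AT in all ControlΔEC and with AU in all Wt1KOΔEC libraries. A difference tied to these codes cannot be told apart from genotype. With the replicate block, 5 genes and 0 list genes were DEGs, and with block and offset also 5 and 0. Snai1 was 1.28 and Snai2 -0.73 under the block, neither a DEG (edgeR adjusted p = 0.416 and 0.403), and under block and offset Zeb1 was 0.02, Zeb2 0.23 and S100a4 -0.11. Scaling by library size alone put the median log2 fold change of all genes at -0.18, against -0.03. Low counts limit Twist1, Twist2 and S100a4.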

Other observations

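Of the genes fixed as markers of other heart cells, mural genes included Rgs5, which had 165, 26.8 and 164 CPM in ControlΔEC and 25.4, 17.9 and 19.4 CPM in Wt1KOΔEC (log2 -2.50 ± 0.57, SE; edgeR adjusted p = 0.163, DESeq2 adjusted p = 0.021). Pdgfrb, the pericyte receptor for PDGF-B, had a log2 fold change of -1.25 and Cspg4, the pericyte proteoglycan NG2, of -1.22, neither a DEG with edgeR and both DEGs with DESeq2. Among macrophage genes, Adgre1, which encodes F4/80, had a log2 fold change of -1.48 and Csf1r, the receptor for colony stimulating factor 1, of -1.40 (edgeR adjusted p = 0.209 and 0.217). Without ControlΔEC replicate 2, which had the highest value of both, they were -0.80 and -0.79.

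Endocardial genes had the opposite sign, with Adgrg6 at 2.14, Cdh11 at 0.83 and Hapln1 at 0.64 on the log2 scale. The early response genes Junb, Ier2 and Fos had log2 fold changes of 0.78, 0.74 and 0.70, each without overlap between genotypes and each a DEG with DESeq2 but not with edgeR. Cardiomyocyte genes overlapped, at 128 to 182 CPM in ControlΔEC and 97.5 to 228 CPM in Wt1KOΔEC, with Myh7 and Tnnt2 the most abundant. Erythroid genes summed to 6560 to 14300 and 5000 to 8310 CPM, and Alas2, the haem synthesis enzyme of red cells, had a log2 fold change of -1.15 (edgeR adjusted p = 0.243), which was -0.59 without ControlΔEC replicate 2.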
